A study of Rattus norvegicus with 24 samples.

Results

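Corticosteroid signalling in the frontal cortex of rats that had inhaled tungsten particles was read from 8 genes out of the 32883 reference genes listed in every table. They are the receptor genes Nr3c1 and Nr3c2 and the target genes Fkbp5, Tsc22d3, Sgk1, Zbtb16, Pdk4 and Errfi1, each taken as the reference gene that carries its symbol. RNA-Seq had been performed on 24 adult male Sprague-Dawley rats 24 h after inhalation of a particulate aerosol of tungsten. The Control group (8 rats) had an aerosol concentration of 0 mg/m3, the Low group (8 rats) 5 mg/m3 and the High group (8 rats) 80 mg/m3. Library numbers are those of the labels, with Control holding 49 to 56, Low holding 57 to 64 and High holding 65 to 72. All 24 labels also hold the word Repeat, and they do not say whether it refers to repeated exposure. Each library was made from polyadenylated RNA of bulk tissue, in which fewer cells of a type and less RNA per cell cannot be told apart. The question was whether these genes, taken as a readout of stress, separated the exposed rats from Control.

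Glucocorticoids reach the brain from the adrenal gland and bind 2 related nuclear receptors. The mineralocorticoid receptor, encoded by Nr3c2, has the higher affinity and is largely occupied at resting hormone levels, whereas the glucocorticoid receptor, encoded by Nr3c1, is occupied as levels rise with stress or with the daily peak. The bound receptors enter the nucleus and bind response elements near target genes, many of which are used as readouts of recent hormone exposure in rodent brain. Among them, Fkbp5 encodes a co-chaperone that lowers the affinity of the receptor for hormone, and Tsc22d3 encodes GILZ, an anti-inflammatory leucine zipper protein. Sgk1 encodes a kinase that regulates ion channels and transporters, Zbtb16 a zinc finger repressor of transcription, Pdk4 a kinase that inhibits pyruvate dehydrogenase, and Errfi1 a feedback inhibitor of EGF receptor signalling.

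For each rat the authors deposited a gene table from StringTie, in which the coverage of a gene is its mean read depth per base. Coverage was divided here by its sum over the reference genes of the library and multiplied by 1000000, which is called scaled coverage below. It is a level per length, so genes can be compared on it. The unscaled sum over reference genes ran from 1.64 to 3.07 in units of 1000000 per library. The tables hold no read counts, so counting error is not known. Control and High tables also list loci assembled from the reads of that rat (46334 to 159573 per table), whereas Low tables list 0. This difference in the tables cannot be told apart from the Low group. Libraries 56 to 62, which are 1 Control and 6 Low rats, had 4.79% to 6.80% of their mitochondrial coverage on the minus strand, against 2.14% to 2.70% in the 17 other libraries. For differences that passed the test in Low, the outcome with this set as a covariate is given beside them. The p-values measure the spread between these samples.

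All 8 genes passed the filter on low values, a mean scaled coverage of at least 1, which kept 15644 genes for testing with limma on log2(scaled coverage + 1). In the comparison of Low with Control, 0 of the 8 genes passed an adjusted p of 0.05, beside 956 of all genes tested (6.11%), of which 1.23% were higher and 4.88% lower in Low. Without adjustment, 1 of the 8, Nr3c1, had a p under the threshold there, beside 18.4% of all genes. In High against Control, 0 of 8 passed, beside 0 of all genes (0.0%). Without adjustment, limma gave 0 of the 8 genes and 330 of all genes (2.11%) a p under 0.05 in that comparison, and the exact Wilcoxon rank-sum test gave 0 of the 8 and 887 of all genes. Without Control 49 and Low 57, 390 genes passed in High against Control with limma, and still 0 of the 8. In Low against High, 0 of 8 passed, beside 1828 of all genes (11.7%), and without adjustment Nr3c1 alone had a p under the threshold, beside 29.1% of all genes. The values of the 8 genes overlapped between the groups in all 24 pairings of a gene with a comparison. Overlap was not counted over all genes, so nothing particular to these 8 genes is read from it. With libraries 56 to 62 as a covariate, 0 of the 8 genes passed in any of the 3 comparisons. The values that moved most with it were those of Fkbp5, at a log2 difference of -0.25 both in Low against Control and in Low against High (limma adjusted p = 0.565 and 0.416), and of Sgk1, at 0.35 and 0.30 (limma adjusted p = 0.662 and 0.587). The plot of scaled coverage by rat shows how far the groups overlapped.

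**Figure D1:**
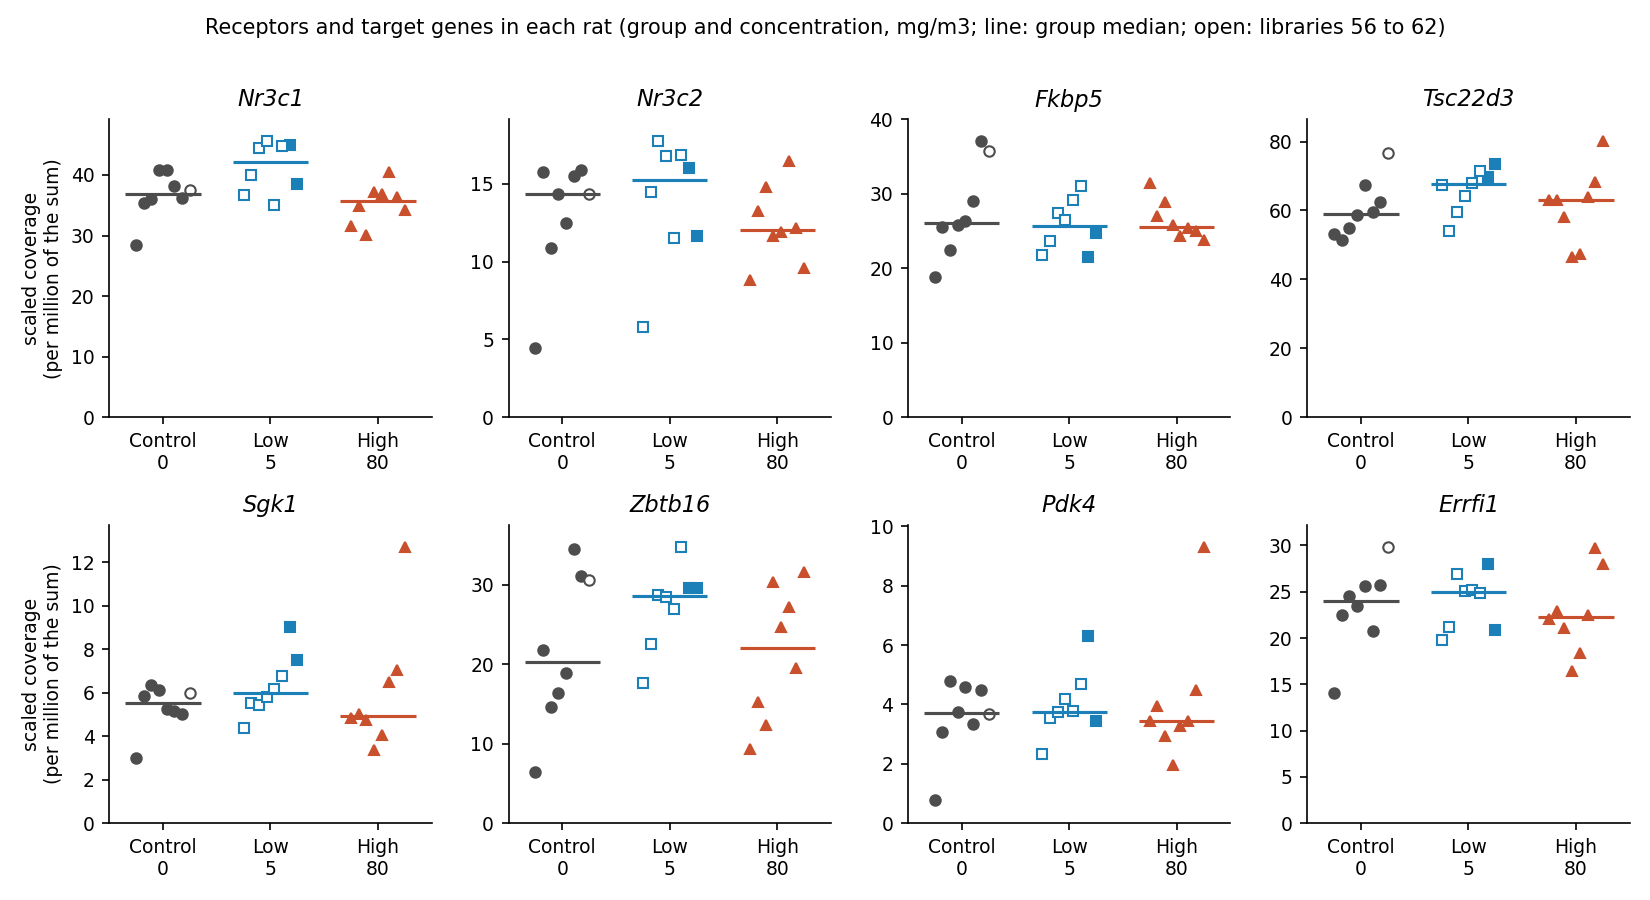
Scaled coverage (vertical axis, per 1000000 of the library's sum over reference genes, starting at 0) of the 8 genes in each of 24 rats by group (horizontal axis, with the aerosol concentration in mg/m3). Each point is 1 rat, lines are group medians and open symbols are libraries 56 to 62. The 3 groups overlap for every gene, with Control 49 at the bottom of Nr3c2 (4.47) and High 72 at the top of Sgk1 (12.7) and Pdk4 (9.31).

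Nr3c1, the glucocorticoid receptor gene, lies on chromosome 18 at 31728373 to 31749647 on the minus strand in the tables' coordinates. Its scaled coverage had a lowest, median and highest value of 28.5, 36.8 and 40.8 in Control, of 35.02, 42.2 and 45.6 in Low, and of 30.1, 35.6 and 40.5 in High. Thus 4 of the 8 Low rats lay above every Control rat, and 4 lay above every High rat, while High and Control covered nearly the same range. In Low it was 1.17-fold that in High (log2 difference 0.22, SE 0.07, 95% confidence interval 0.07 to 0.37), which missed the threshold in limma (adjusted p = 0.0539, unadjusted p = 0.00668). Against Control, the level in Low was 1.12-fold (log2 difference 0.17, 95% confidence interval 0.01 to 0.32, limma adjusted p = 0.229). High against Control gave a log2 difference of -0.06 (95% confidence interval -0.21 to 0.10, limma adjusted p = 0.999).

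For Nr3c1 in Low against High, single libraries decided the side of the threshold. It passed the threshold without Control 49, Low 57, Low 61 or High 70, each left out in turn (limma adjusted p = 0.0223, 0.0338, 0.0246 and 0.0304), and with only the Low and High groups in the fit (0.0496). It also passed with mitochondrial genes left out of the scaling (limma adjusted p = 0.0215). With median-of-ratios scaling the log2 difference was 0.13 (limma adjusted p = 0.163), and with libraries 56 to 62 as a covariate it was 0.22 (limma adjusted p = 0.358). The median log2 difference of all genes tested in this comparison was 0.09.

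Nr3c2, the mineralocorticoid receptor gene, spans chromosome 19 from 34448289 to 34752695 on the minus strand and overlaps 2 clone-named genes on the other strand. Its scaled coverage ran from 4.47 through a median of 14.3 to 15.9 in Control, from 5.79 through 15.2 to 17.7 in Low, and from 8.79 through 12.03 to 16.5 in High. A single rat set the bottom of the range in Control (library 49) and in Low (library 57). The log2 difference was 0.10 for Low against Control (95% confidence interval -0.34 to 0.54), -0.02 for High against Control (-0.46 to 0.43) and 0.12 for Low against High (-0.32 to 0.56), and limma's adjusted p was at least 0.741 in all 3. For Low against Control the interval spans 0.79-fold to 1.46-fold, so that changes of that size remain possible.

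Every library held more Nr3c1 than Nr3c2 transcript per length. The ratio of Nr3c1 to Nr3c2 had a median of 2.73 in Control, with a range of 2.25 to 6.38. It was 2.79 in Low, with a range of 2.503 to 6.32, and 3.04 in High, with a range of 2.03 to 3.59. Control 49 and Low 57 gave the ratios of 6.38 and 6.32. These were also the libraries with the fewest reference genes at a coverage of at least 1 in their groups, 16598 for Control 49 and 15502 for Low 57, and the part of this in their receptor values was not tested.

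Fkbp5, the co-chaperone gene on chromosome 20 (7976713 to 8019020, minus strand), is the target that acts back on the receptor. Its scaled coverage ran from 18.9 through a median of 26.1 to 37.1 in Control, from 21.6 through 25.7 to 31.1 in Low and from 23.8 through 25.6 to 31.5 in High. The 3 medians lay within 0.5 of each other, and both exposed groups fell inside the Control range. The log2 difference was -0.08 for Low against Control (95% confidence interval -0.30 to 0.14, limma adjusted p = 0.731) and -0.03 for High against Control (-0.26 to 0.19, limma adjusted p = 0.999). As folds the intervals span 0.811 to 1.105 for Low and 0.837 to 1.139 for High.

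Tsc22d3, the gene of GILZ (X chromosome, 111884295 to 111887906, minus strand), was the most abundant of the 8 genes. It ran from 51.5 through a median of 59.1 to 76.7 in Control, from 54.2 through 67.7 to 73.6 in Low and from 46.5 through 63.1 to 80.1 in High. High held both the lowest and the highest rat of all 24, libraries 68 and 72. The log2 difference was 0.13 for Low against Control (95% confidence interval -0.08 to 0.33, limma adjusted p = 0.514) and 0.01 for High against Control (-0.19 to 0.21, limma adjusted p = 0.999).

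Sgk1, on chromosome 1 (24185435 to 24302298, minus strand), ran from 2.98 through a median of 5.56 to 6.36 in Control, from 4.36 through 6.01 to 9.04 in Low and from 3.39 through 4.92 to 12.7 in High. Each exposed group had 3 rats above every Control rat, and 7 of the 8 Low rats lay above the High median. The log2 difference was 0.21 for Low against Control (95% confidence interval -0.16 to 0.58, limma adjusted p = 0.567), 0.08 for High against Control (-0.29 to 0.45, 0.999) and 0.12 for Low against High (-0.25 to 0.49, 0.670). The level of Sgk1 depends on the deposited column, because its coverage and FPKM were not proportional. Relative to the library's median, its ratio of coverage to FPKM lay at 0.091 to 0.094 in Low tables. It lay at 0.099 to 0.149 in those of Control and at 0.110 to 0.135 in those of High. The ratio of Nr3c1, Nr3c2, Fkbp5, Tsc22d3 and Errfi1 was 1.0 in every table. That of Zbtb16 was 1.0 in every Low table, but 0.845 to 1.0 in Control and 0.822 to 1.0 in High. That of Pdk4 was 1.0 in every Low table, but 0.721 to 1.0 in Control and 0.837 to 1.0 in High. With FPKM scaled to its sum, Sgk1 had a Control median of 39.5, a Low median of 61.2 and a High median of 38.6, and the log2 difference of Low against Control was 0.66 (limma adjusted p = 0.0553). Since the ratio of Sgk1 itself differed between Low tables and the rest, the kind of table and the Low group cannot be told apart in this value.

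Zbtb16, the zinc finger repressor gene on chromosome 8 (52985313 to 53146953, minus strand), was the most variable target in Control. It ran from 6.44 through a median of 20.3 to 34.6 in Control, from 17.6 through 28.6 to 34.8 in Low and from 9.40 through 22.1 to 31.6 in High. Although 7 of 8 Low rats lay above the Control median, only 1 lay above the whole Control range. The coefficient of variation was 44.3% in Control, 18.9% in Low and 39.5% in High, higher than in 93.1%, 61.2% and 91.2% of the genes tested. Low was 1.35-fold Control (log2 difference 0.43, 95% confidence interval -0.13 to 0.99, limma adjusted p = 0.417) and 1.34-fold High (0.42, -0.14 to 0.98, limma adjusted p = 0.305), the largest differences among the 8 genes. In 15 of the 16 tables with assembled loci, a locus on the strand of Zbtb16 ran past the 3' end of the reference gene, by a median of 5086 bases, and the part of this in its values was not tested. Its ratio of coverage to FPKM, given above, was below 1.0 in some Control and High tables and in no Low table. The kind of table and the Low group therefore cannot be told apart in its differences either.

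Pdk4, the pyruvate dehydrogenase kinase gene on chromosome 4 (30546664 to 30556814, minus strand), was the least abundant of the 8 genes. It ran from 0.773 through a median of 3.70 to 4.79 in Control, from 2.32 through 3.75 to 6.31 in Low and from 1.97 through 3.44 to 9.31 in High. The medians were close, and the extremes came from library 49 at the bottom of Control and library 72 at the top of High. The log2 difference was 0.18 for Low against Control (95% confidence interval -0.29 to 0.64, limma adjusted p = 0.715) and 0.15 for High against Control (-0.32 to 0.61, limma adjusted p = 0.999). Errfi1, the EGF receptor inhibitor gene on chromosome 5 (167952728 to 167966009, plus strand), ran from 14.0 through 24.01 to 29.9 in Control, from 19.8 through 25.01 to 27.97 in Low and from 16.5 through 22.3 to 29.8 in High. Its log2 difference was 0.06 for Low against Control (95% confidence interval -0.20 to 0.31, limma adjusted p = 0.839) and -0.04 for High against Control (-0.29 to 0.22, limma adjusted p = 0.999).

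**Figure D2:**
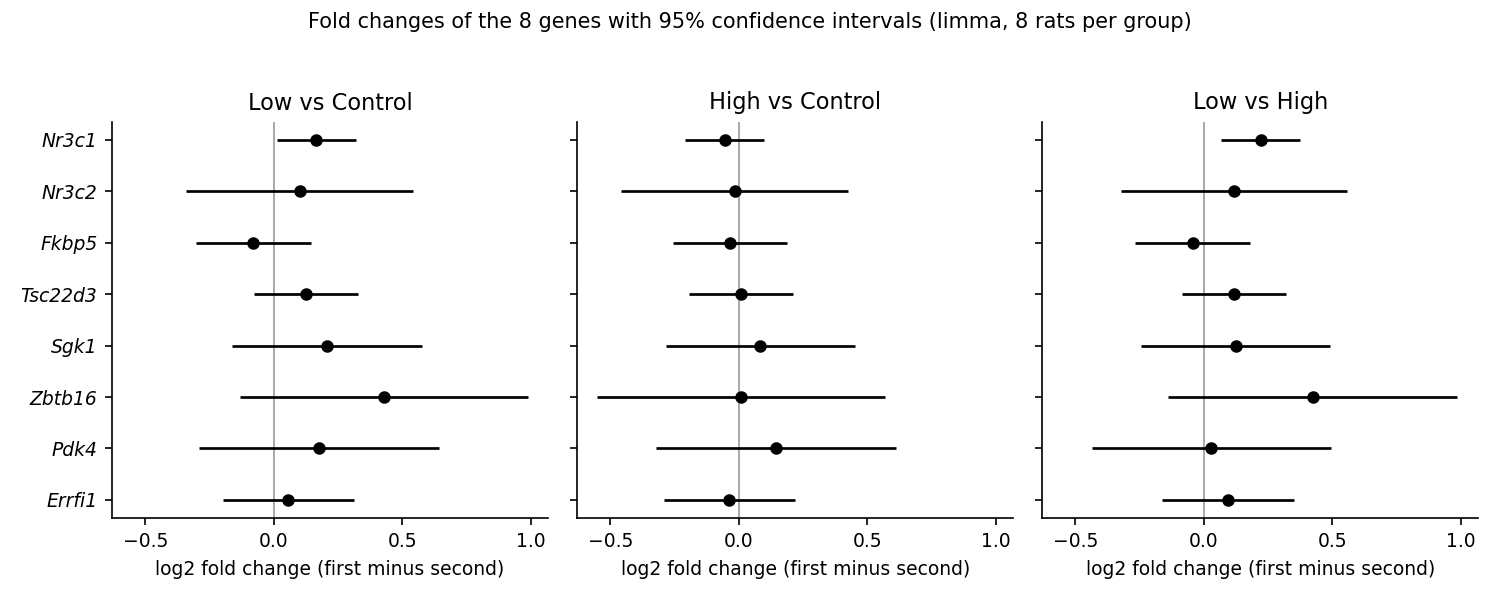
Log2 fold change on the log2(scaled coverage + 1) scale (horizontal axis) of the 8 genes (vertical axis) in the 3 comparisons, as points with 95% confidence intervals from limma, 8 rats per group. The intervals of Nr3c1 lie above 0 in both comparisons with Low (0.01 to 0.32 and 0.07 to 0.37), though its adjusted p is above 0.05, and all others include 0.

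Ordered by mean scaled coverage in Control, the level fell from Tsc22d3 (60.6 ± 8.35, SD, n = 8) to Nr3c1 (36.7 ± 3.89), Fkbp5 (27.6 ± 6.21), Errfi1 (23.3 ± 4.62), Zbtb16 (21.8 ± 9.66), Nr3c2 (13.0 ± 3.84), Sgk1 (5.35 ± 1.07) and Pdk4 (3.56 ± 1.28). Errfi1 and Zbtb16 did not differ beyond their spread, with Errfi1 higher in 5 of 8 Control rats (exact sign-flip permutation test, two-sided, adjusted p = 0.297). The other 6 pairs of neighbours in this order differed in that test (adjusted p = 0.0137 to 0.0274 over 7 pairs), each with the first gene higher in at least 7 of 8 rats. The order was set on the same 8 Control rats that were tested, so the test is no independent support for it. Tsc22d3 had a higher mean than 84.6% of the genes tested and Pdk4 than 19.8%. The place of Sgk1 holds for coverage only, since on scaled FPKM its mean over the 24 rats was 50.5, between Tsc22d3 (58.9) and Nr3c1 (35.5).

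Sgk1, Pdk4 and Errfi1 varied together across rats, and Tsc22d3 passed the pair test with each of them. After the group means were taken off, Sgk1 and Pdk4 had a Pearson's r of 0.87 over 24 rats (permutation test shuffled within groups, adjusted p = 0.00056 over 28 pairs) and a Spearman's rho of 0.73 (permutation adjusted p = 0.00392). Pdk4 and Errfi1 had r = 0.84 and rho = 0.84, and Sgk1 and Errfi1 had r = 0.74 and rho = 0.65 (permutation adjusted p = 0.00056 and 0.00121 for r). Tsc22d3 had r = 0.68 to Sgk1, 0.67 to Errfi1 and 0.58 to Pdk4 (permutation adjusted p = 0.00655, 0.00655 and 0.0261). Without the 2 rats farthest from the median of the first gene, r in these 6 pairs was 0.72 for Sgk1 with Pdk4, 0.75 for Pdk4 with Errfi1, 0.65 for Sgk1 with Errfi1, and 0.56, 0.54 and 0.51 for Tsc22d3 with Sgk1, Errfi1 and Pdk4. Without libraries 56 to 62, all 6 passed the threshold again, with r from 0.66 to 0.90. With median-of-ratios scaling 5 of the 6 passed, and Tsc22d3 with Pdk4 fell to r = 0.43 (permutation adjusted p = 0.162). That pair also fell to 0.44 and missed the threshold without High 72. Within groups, Tsc22d3 and Errfi1 had r = 0.68 in Control, 0.05 in Low and 0.92 in High, and Tsc22d3 and Pdk4 had 0.42, 0.19 and 0.85, each over 8 rats. The differences between groups were not tested. Sgk1 and Pdk4 had 0.87, 0.83 and 0.94 (exact permutation adjusted p = 0.189, 0.105 and 0.0412 over 84 pairs within groups). Without the 2 farthest rats of the group, r for this pair was -0.48, 0.06 and 0.70. Pdk4 and Errfi1 had 0.90, 0.81 and 0.80 (exact permutation adjusted p = 0.119, 0.065 and 0.101). Without the 2 farthest rats, r for that pair was 0.50, 0.54 and 0.82.

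The rank of these pairs among all genes varied and is given as a description because all values of a library share 1 divisor. Ranked by r among the other 15643 genes tested, Pdk4 was number 2 for Sgk1, and Sgk1 was number 2 for Pdk4. Errfi1 was number 3 for Pdk4, and Pdk4 was number 1 for Errfi1. Sgk1 was number 25 for Tsc22d3, and Tsc22d3 was number 22 for Sgk1. Pdk4 was number 129 for Tsc22d3, but Tsc22d3 was number 1002 for Pdk4, and Errfi1 was number 31 for Tsc22d3, but Tsc22d3 was number 241 for Errfi1.

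**Figure D3:**
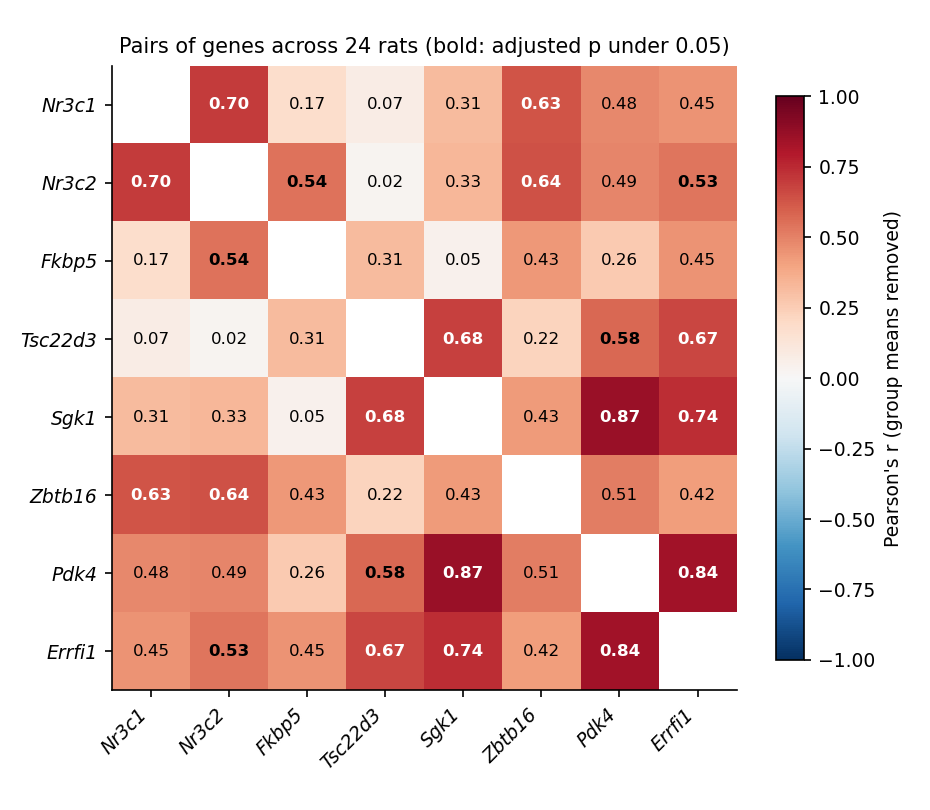
Pearson's r of log2(scaled coverage + 1) with group means removed for each pair of the 8 genes over 24 rats (both axes list the genes, colour and number give r). Bold marks a permutation adjusted p under 0.05, and Tsc22d3, Sgk1, Pdk4 and Errfi1 form the block with r from 0.58 to 0.87.

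In High, library 72 had the highest Tsc22d3 (80.1), Sgk1 (12.7) and Pdk4 (9.31), while library 68 had the lowest Tsc22d3 (46.5), Sgk1 (3.39), Pdk4 (1.97) and Errfi1 (16.5) of that group. The 8 High rats took the same order by Tsc22d3 as by Sgk1 (rho = 1.0, exact permutation p = 4.96e-05, the smallest that 8 rats can give, adjusted p = 0.00417 over 84 pairs within groups). By rho the same pair had 0.76 in Low and -1.4e-17 in Control (exact permutation adjusted p above the threshold in both). By r it had 0.91 in High (exact permutation adjusted p = 0.0146), 0.50 in Low and 0.28 in Control (exact permutation adjusted p above the threshold in the last 2). The difference between groups was not tested. Control 49 was lowest of its group in Sgk1 (2.98), Pdk4 (0.773) and Errfi1 (14.0), and also in Nr3c1 (28.5), Nr3c2 (4.47), Fkbp5 (18.9) and Zbtb16 (6.44), though not in Tsc22d3 (53.1, where the lowest was 51.5).

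**Figure D4:**
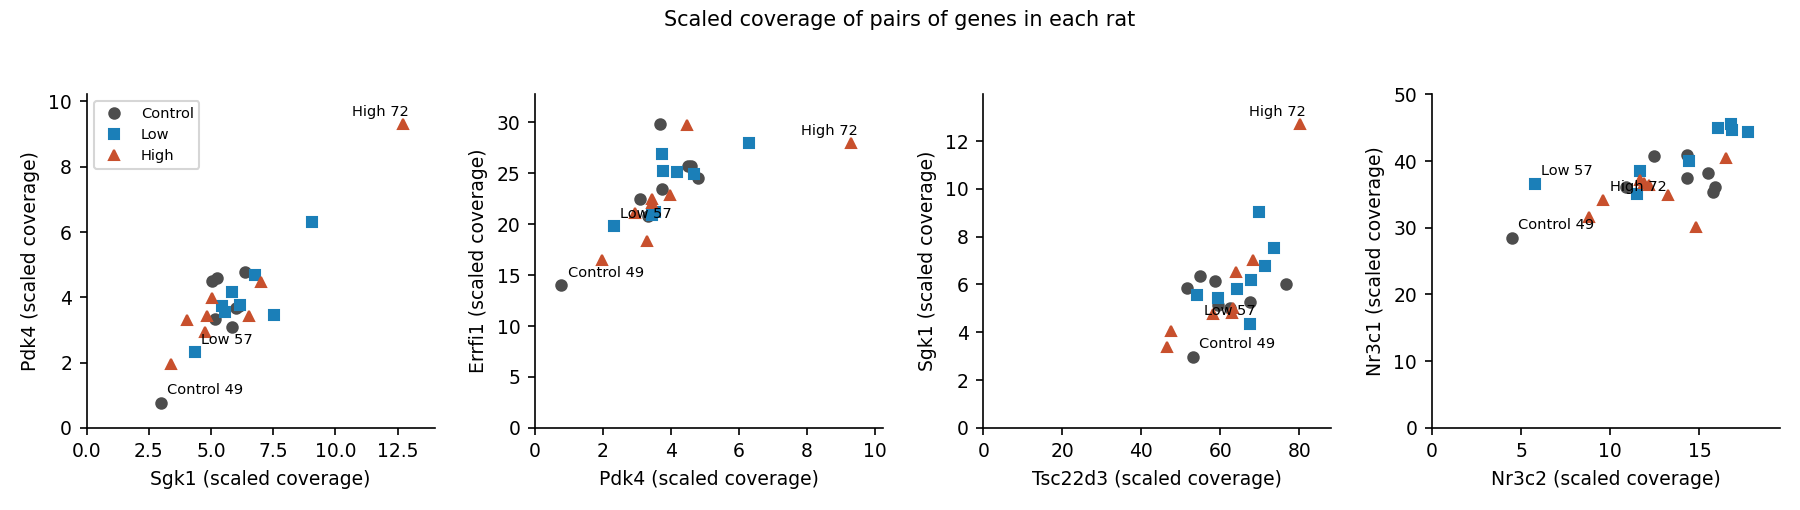
Scaled coverage of 4 pairs of genes (axes as labelled, linear, starting at 0), each point 1 of 24 rats, with Control 49, Low 57 and High 72 named. Sgk1 and Pdk4 rise together from Control 49 (2.98 and 0.773) to High 72 (12.7 and 9.31), whereas Control 49 and Low 57 stand apart in Nr3c2 (4.47 and 5.79).

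The receptors and the other 2 targets did not share this pattern to the same rank. Nr3c1 and Nr3c2 had r = 0.70 (permutation adjusted p = 0.00798) and rho = 0.58 (permutation adjusted p = 0.0240). Nr3c2 was only number 2289 among the genes most like Nr3c1, and with median-of-ratios scaling r was 0.20 (permutation adjusted p = 0.460). The pair also missed the threshold without Control 49 (r = 0.53, permutation adjusted p = 0.0659). It missed as well without Control 49 and Low 57 (0.48, 0.162) and without libraries 56 to 62 (0.67, 0.0711). Zbtb16 had r = 0.63 with Nr3c1 and 0.64 with Nr3c2 (permutation adjusted p = 0.00889 for both), which fell to 0.46 and 0.29 without the 2 farthest rats. By rho both pairs of Zbtb16 missed the threshold (0.42 and 0.43, permutation adjusted p = 0.143 and 0.128). Nr3c2 also passed with Fkbp5 (r = 0.54) and Errfi1 (r = 0.53), falling to 0.17 and 0.01 without Control 49 and Low 57. Fkbp5 had r = 0.31 with Tsc22d3 (permutation adjusted p = 0.166), 0.05 with Sgk1 (0.840) and 0.45 with Errfi1 (0.0850).

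The regions just before the starts of Tsc22d3, Sgk1, Pdk4 and Errfi1 are printed here because these 4 genes passed the pair tests with each other over the 24 rats. They are the 250 bases before the most downstream start in the RefSeq windows of build GRCr8, 5' to 3' on the strand of the gene, with 3 kinds of promoter element in capitals on either strand. The TATA box was searched as TATAAA. The CCAAT box was searched by the letters of its name. The GC box was searched as GGGCGG. The windows are Tsc22d3 at chrX:109010035-109010284 (minus strand), Sgk1 at chr1:24804832-24805081 (minus strand), Pdk4 at chr4:34568330-34568579 (minus strand) and Errfi1 at chr5:166606591-166606840 (plus strand).
Tsc22d3: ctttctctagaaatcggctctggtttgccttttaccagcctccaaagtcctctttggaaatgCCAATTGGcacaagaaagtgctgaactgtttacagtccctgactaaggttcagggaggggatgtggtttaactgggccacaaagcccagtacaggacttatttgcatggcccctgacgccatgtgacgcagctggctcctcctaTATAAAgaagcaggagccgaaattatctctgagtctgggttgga
Sgk1: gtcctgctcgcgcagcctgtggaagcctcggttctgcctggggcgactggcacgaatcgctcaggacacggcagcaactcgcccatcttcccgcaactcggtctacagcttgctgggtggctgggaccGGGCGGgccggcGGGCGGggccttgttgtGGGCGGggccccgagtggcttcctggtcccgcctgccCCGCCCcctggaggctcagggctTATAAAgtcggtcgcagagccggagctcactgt
Pdk4: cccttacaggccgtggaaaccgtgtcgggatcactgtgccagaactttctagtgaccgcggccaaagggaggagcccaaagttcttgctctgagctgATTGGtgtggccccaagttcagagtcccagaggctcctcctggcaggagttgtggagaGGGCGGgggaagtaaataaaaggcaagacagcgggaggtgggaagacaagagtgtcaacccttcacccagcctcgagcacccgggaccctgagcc
Errfi1: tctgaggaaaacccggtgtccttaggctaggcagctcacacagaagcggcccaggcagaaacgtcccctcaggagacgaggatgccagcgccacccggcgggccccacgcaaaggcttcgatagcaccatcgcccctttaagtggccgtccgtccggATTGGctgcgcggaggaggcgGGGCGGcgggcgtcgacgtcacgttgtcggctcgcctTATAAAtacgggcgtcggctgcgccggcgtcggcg

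Of the 8 genes, 6 had a window in the RefSeq table, with 11 windows in all, and Nr3c2 and Zbtb16 were not matched. None of the 11 windows held the full glucocorticoid response element (AGAACA and TGTTCT with 3 bases between), a relaxed form with 1 free base in each arm (GNACA and TGTNC with 3 bases between) or the single arm TGTTCT, searched on both strands. Of all 33469 windows of that length, 0.012% held the full form, 0.373% the relaxed form and 17.5% the single arm, which the full form also contains. No match says only that these letters are not in this window. The Sgk1 window printed holds a TATA box 33 bases before the start and 4 GC boxes, and that of Errfi1 a TATA box 35 bases before the start, a CCAAT box and a GC box. Pdk4 has a CCAAT box and a GC box, and Tsc22d3 a TATA box 44 bases before the start and 2 CCAAT boxes that overlap on opposite strands. Among all windows, 12.9% held the TATA box, 34.0% the CCAAT box and 30.5% the GC box.

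The 3 genes most like each member over the 24 rats, by r with group means removed, are given here. Genes of the list of other glucocorticoid targets used below were among them for Tsc22d3 (Gpd1 and Klf15), Sgk1 (Ddit4) and Pdk4 (Per1) only. Tsc22d3 was closest to Gpd1 (r = 0.82), which encodes glycerol-3-phosphate dehydrogenase, and to Klf15 (0.81), a glucocorticoid-induced transcription factor, followed by Plat (0.77), the gene of tissue plasminogen activator. Sgk1 was closest to Plekhf1 (0.89), to Ddit4 (0.80), an inhibitor of mTOR signalling induced by stress, and to the arrestin-domain gene Arrdc3 (0.80). Arrdc3 was also among the 3 closest to Pdk4 (0.87) and Errfi1 (0.79). The other 2 for Pdk4 were the adiponectin receptor gene Adipor2 (0.81) and the clock gene Per1 (0.81), and for Errfi1 the zinc finger genes Zfp869 (0.80) and Zfp131 (0.79). Fkbp5 was closest to Wfs1 (0.87), Sdc3 (0.86) and Smad3 (0.86), and Zbtb16 to the thyroid hormone receptor gene Thrb (0.86), Rimbp2 (0.86) and Plxna1 (0.85). For the receptors they were Heca (0.94), Atn1 (0.93) and Med14 (0.92) for Nr3c1, and Pbrm1 (0.97), Man2a2 (0.97) and Pcm1 (0.97) for Nr3c2.

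A list of 30 other glucocorticoid target genes, of which 28 passed the filter, was then compared with each of the 8. Among the 782 genes most like Tsc22d3 (5% of those ranked) were 16 of the 28, with a median r of 0.46 over the list against 0.10 over all genes. The count was 11 of 28 for Sgk1 (median r 0.35 against 0.10), 11 for Errfi1 (0.56 against 0.24) and 7 for Pdk4 (0.43 against 0.18). For Fkbp5 it was 3 (0.31 against 0.30), for Nr3c1 2 (0.26 against 0.30), for Zbtb16 2 (0.28 against 0.19) and for Nr3c2 0 (0.23 against 0.33). Per1, the clock gene with a glucocorticoid response element in its promoter, ranked number 5 for Pdk4, 6 for Sgk1, 29 for Errfi1 and 93 for Tsc22d3, but number 8150 for Fkbp5. Lists of other kinds ranked high as well for some of the 8 genes. For Tsc22d3, 7 of 13 clock genes were in the top 5%, for Sgk1 7 of 11 immediate early genes, and for Fkbp5 3 of 13 clock genes. For Errfi1 it was 3 of 13 clock genes and 0 of 11 immediate early genes, and for Pdk4 1 of 13 and 1 of 11. These ranks are a description, and whether they single out glucocorticoid targets was not tested.

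**Figure D5:**
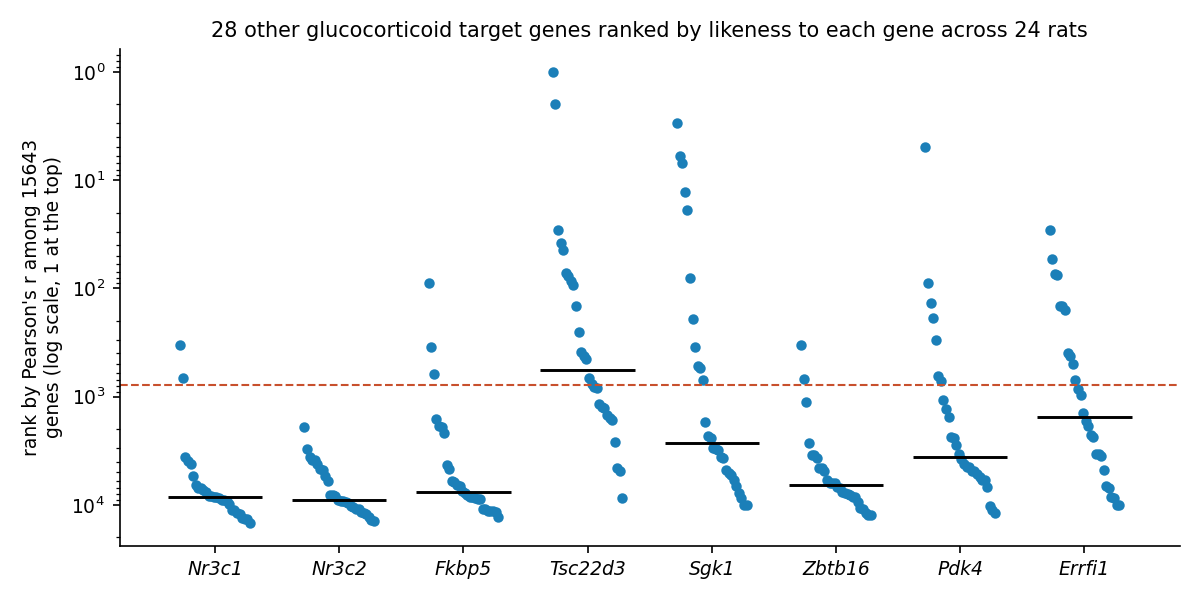
Rank of 28 other glucocorticoid target genes (points) by Pearson's r with each of the 8 genes (horizontal axis) among 15643 genes over 24 rats (vertical axis, log scale, 1 at the top). Black lines are medians over the 28 genes and the dashed line marks the top 5%, above which lie 16 genes for Tsc22d3 and 0 for Nr3c2.

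Between groups, the 28 other target genes gave 0 calls in Low against Control and 0 in High against Control. In Low against High, 4 rose and 0 fell, beside 5.3% of all genes that were higher and 6.39% that were lower. These were Dusp1, a phosphatase that switches off MAP kinases (83.9 ± 22.3 in Low and 44.1 ± 28.8 in High, SD, n = 8, log2 difference 1.11, limma adjusted p = 0.0181), and Gadd45g, a stress-induced growth arrest gene (25.02 ± 2.88 and 15.7 ± 2.30, 0.64, 0.00315). Arl4d, a small GTPase gene (47.0 ± 6.41 and 32.5 ± 7.57, 0.54, limma adjusted p = 0.0060), and Klf9, a Krüppel-like factor (126.4 ± 9.95 and 105.5 ± 12.4, 0.26, limma adjusted p = 0.0103), were the others. With libraries 56 to 62 as a covariate, 0 of the 4 passed (limma adjusted p = 0.0769 to 0.280). Their log2 differences with it were 1.07 for Dusp1, 0.54 for Gadd45g, 0.62 for Arl4d and 0.27 for Klf9. Klf9 also missed the threshold with FPKM scaled to its sum (log2 difference 0.05, limma adjusted p = 0.658) and with median-of-ratios scaling (0.17, limma adjusted p = 0.190), and without scaling its value was 0.046. Without scaling 0 of the 4 passed, with limma adjusted p = 0.0969 for Dusp1, 0.149 for Gadd45g and 0.285 for Arl4d. By the exact Wilcoxon rank-sum test 2 of the 4 passed, and Dusp1 (adjusted p = 0.0716) and Klf9 (0.0514) missed. The median log2 difference of the list was 0.14, beside 0.09 over all genes. The most abundant genes of the list, Glul and Fam107a, did not pass (log2 differences 0.08 and 0.16, limma adjusted p = 0.336 and 0.386).

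The steps around the receptor were measured too. Of 18 chaperones and coregulators, 0 passed in Low against Control and 4 were higher in Low than in High, namely the chaperone genes Hsp90ab1 (log2 difference 0.18, limma adjusted p = 0.0402) and Hspa8 (0.27, 0.0215) and the coactivator genes Ncoa1 (0.20, 0.0245) and Crebbp (0.33, 0.0378). Of all genes tested, 6.11% passed in Low against Control, and in Low against High 5.3% were higher and 6.39% lower. With the covariate, 0 of these 4 passed. Their log2 differences with it were 0.12 for Hsp90ab1, 0.31 for Hspa8, 0.25 for Ncoa1 and 0.36 for Crebbp. With median-of-ratios scaling 1 of the 4 passed, and Hsp90ab1, Hspa8 and Ncoa1 missed the threshold (limma adjusted p = 0.337, 0.164 and 0.132). Without scaling of coverage 0 of the 4 passed, and the log2 difference of Hsp90ab1 was -0.04 and that of Ncoa1 -0.01. In the list of corticosteroid metabolism and export, 4 of 8 genes were tested and 0 passed in any comparison. Hsd11b1, which regenerates active corticosteroid inside cells, had a Low level of 36.3 ± 2.64 and a High level of 33.2 ± 1.39 (SD, n = 8), and a log2 difference of 0.12 between them (limma adjusted p = 0.117). Among 7 tested genes of the corticotropin-releasing hormone system, Adcyap1, the gene of the neuropeptide PACAP, was higher in Low than in High (23.4 ± 3.81 and 16.3 ± 5.14, log2 difference 0.56, limma adjusted p = 0.0333). With the covariate the log2 difference of Adcyap1 was 0.61 (limma adjusted p = 0.271). Crh itself had a Control level of 7.05 ± 1.66, a Low level of 6.47 ± 1.86 and a High level of 6.39 ± 1.68 (SD, n = 8).

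Clock genes and immediate early genes had calls between groups. Of all genes tested, 1.23% were higher and 4.88% lower in Low against Control. In Low against High, 5.3% were higher and 6.39% lower. Of 13 clock genes, 5 rose in Low against Control, namely Ciart (log2 difference 1.09), Per2 (0.69), Nr1d1 (0.58), Dbp (0.56) and Nr1d2 (0.55), and Clock fell by 1.21 (limma adjusted p = 0.0017 to 0.0270). With the covariate, 1 of these 6 passed, Clock (log2 difference -1.21, limma adjusted p = 0.0358). Those of the 5 that rose were then 0.39 (Dbp) to 1.06 (Ciart). Without scaling 2 of the 6 passed, and by the exact Wilcoxon rank-sum test 3. Over the settings tried, the log2 difference of Clock ran from -1.345 to -0.44. In Low against High, Ciart, Per2, Nr1d1 and Nr1d2 rose and Clock fell, and 0 of these 5 passed with the covariate. Their log2 differences with it were 0.85, 0.74, 0.53, 0.46 and -1.02. Without scaling 1 of these 5 passed, and by the exact Wilcoxon rank-sum test 3. Of 11 immediate early genes, 2 rose in Low against Control and 10 rose in Low against High. The 10 ran from Npas4 (log2 difference 1.66) to Egr4 (0.70), with limma adjusted p from 0.000194 to 0.0406. With the covariate 6 of the 10 passed, and the log2 differences of the 10 ran from 0.65 (Btg2) to 2.17 (Npas4). Without scaling 7 of the 10 passed, and by the exact Wilcoxon rank-sum test 6. The 2 in Low against Control were Junb (log2 difference 0.71) and Egr4 (0.56). Both missed the threshold with the covariate (log2 differences 0.82 and 0.65, limma adjusted p = 0.111 and 0.124) and by the exact Wilcoxon rank-sum test. All 11 had lower fitted values in High than in Control (median log2 difference -0.47, Npas4 -0.88 and Arc -0.85), and 0 passed there, so that the Low against High values combine a higher Low with a lower High. Fosb did not pass in Low against High (0.57, limma adjusted p = 0.104).

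Markers of the cell types a cortical piece can hold were summed per library. Those of cortical excitatory neurons ranged from 775.0 to 1141 in Control, while Low had 658.9 to 1117 and High 378.4 to 1085. The striatal markers, of tissue next to frontal cortex, ranged from 454.7 to 1062 in Control, while Low had 319.3 to 778.1 and High 221.9 to 1698. Those of choroid plexus stayed between 5.99 and 73.6, and of all markers found none was at 0 in all libraries. Of 7 excitatory, 6 inhibitory, 6 astrocyte, 7 oligodendrocyte and 6 microglia markers, 0 passed in any of the 3 comparisons, nor did any marker of meninges, choroid plexus, striatum or blood. Of 6 pericyte and smooth muscle markers, 1 passed, Pdgfrb, which was lower in Low (7.74 ± 1.38) than in Control (12.99 ± 2.40) and High (12.6 ± 2.20), and it passed in both with the covariate (limma adjusted p = 0.0140 and 0.0392). The other 5 had log2 differences in Low against Control from -0.43 (Acta2) to 0.28 (Kcnj8, limma adjusted p = 0.120), with Rgs5 at -0.02. Of 3 endothelial markers tested, Slco1a4 was higher in Low (46.0 ± 4.26) than in High (36.5 ± 5.06, SD, n = 8). With the covariate its log2 difference went from 0.33 to 0.15 (limma adjusted p = 0.599), and with median-of-ratios scaling it missed the threshold (limma adjusted p = 0.0988). With FPKM scaled to its sum, the log2 difference of Pdgfrb in Low against Control was -0.38 (limma adjusted p = 0.0703). The part of these in the values of the receptors and targets was not tested.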

How the data were processed

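Frontal cortex RNA of 24 rats was measured, 8 per group, with groups taken from the sample labels. The submitters' processing notes name FastQC, Trimmomatic, TopHat2, StringTie and mRatBN7.2, with no versions. Positions are given as the tables list them, since chromosome 1 reaches 282724300 there and the build was not settled. The authors deposited coverage per gene, which is mean read depth per base and is not scaled for depth. The authors also deposited FPKM, which StringTie divides by transcript length and sequenced bases. TPM was not used.

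Coverage was summed per gene identifier, scaled to 1000000 per library over 32883 reference genes, and tested in limma 3.58.1 (trend, robust) in R 4.3.3 on log2(value + 1), with 3 groups in 1 fit, a minimum mean of 1, two-sided tests and a Benjamini-Hochberg threshold of 0.05. The script was tested on simulated data. Pairs of genes were tested with 100000 permutations within groups (scipy 1.17.1), and within groups by exact permutation. Promoters came from RefSeq (GRCr8).

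The 8 genes and the lists were chosen with earlier results of these data known. The rule for named genes was the 8 genes, the 3 most correlated genes for each, and from each list every gene past the threshold and the 2 of highest mean, of which the latter are given here for the other targets only. Per1, Hsd11b1, Crh and Fosb were singled out after their values were seen. The use of libraries 56 to 62 as a covariate, other scalings, filters and left-out libraries were tried as alternatives, and the scaled FPKM and the joint removal of Control 49 and Low 57 were added after seeing the data. Read counts were not used here. Sequenced bases inferred from coverage and FPKM ran from 5.049 to 7.858 gigabases in Control and from 4.948 to 7.649 in High. In Low they were lower, from 3.34 to 4.435 apart from Low 60 at 6.422. The part of this in the Low values was not tested.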

Additional observations from a re-analysis of the deposited data

Results flagged for a closer look

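In 6 of 24 sets of 8 values (8 genes in 3 groups) 1 rat lay far from the others by Dixon's criterion, where chance gives about 1 in 20, or 1.2 sets. Control 49 was low in 4 genes, with scaled coverage of 28.5 for Nr3c1, 4.47 for Nr3c2, 2.98 for Sgk1 and 0.773 for Pdk4. High 72 was high in 2 genes, with 12.7 for Sgk1 and 9.31 for Pdk4. The 4 values of 1 library and the 2 of the other are not independent of each other.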

How the results depend on the processing

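No paired analysis was possible because the groups share no replicate numbers. Adding the assembled loci was not run, since many repeat the coverage of a reference gene. Of 285 values of the 8 genes under other settings, 242 kept their direction and side of the threshold and 27 turned direction. Another 16 kept their direction and passed the threshold, 13 of these with FPKM as deposited. With that setting Fkbp5 turned direction and also passed, in Low against Control and in Low against High (limma adjusted p = 0.000254 and 0.000347). FPKM as deposited put the median log2 difference of all genes at 0.53 in Low against Control, against 0.06 with scaled coverage. For the other changes the cause was not tested.

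In Low against Control, the calls among all genes were 556 with a minimum mean of 5, 1759 with scaling without mitochondrial genes, 12393 with FPKM as deposited, 566 with only the groups compared, 361 with the covariate, 372 by Wilcoxon and 1847 with scaled FPKM, and 8 of the 8 genes passed with FPKM as deposited. Log2 differences that turned were 0.40 for Fkbp5 with FPKM, -0.029 for Errfi1 with the covariate and -0.0018 for Errfi1 without Control 49 and Low 57, and 0.12 for Pdgfrb with FPKM.

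In High against Control, 390 genes passed without Control 49 and Low 57. Values that turned without scaling were 0.13 for Nr3c1, 0.17 for Nr3c2, 0.15 for Fkbp5 and 0.14 for Errfi1. With median-of-ratios scaling they were 0.022 for Nr3c2 and 0.0019 for Fkbp5, without mitochondrial genes 0.0089 for Nr3c2, with FPKM 0.021 for Nr3c2, 0.012 for Fkbp5 and 0.010 for Errfi1, and with the covariate 0.00047 for Fkbp5. Without Control 49 and Low 57 they were -0.016 for Tsc22d3, -0.0094 for Sgk1, -0.20 for Zbtb16 and -0.038 for Pdk4.

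In Low against High, the calls were 1192 with a minimum mean of 5, 12410 with FPKM, 354 with the covariate, 1147 by Wilcoxon and 4507 without Control 49 and Low 57. Of the 8 genes, 7 passed with FPKM and 1 each with scaling without mitochondrial genes, only the groups compared, or without Control 49 and Low 57. Values that turned without scaling were -0.091 for Nr3c2, -0.099 for Tsc22d3, -0.065 for Sgk1, -0.15 for Pdk4, -0.12 for Errfi1, -0.036 for Hsp90ab1 and -0.013 for Ncoa1. Others were 0.38 for Fkbp5 and 0.17 for Pdgfrb with FPKM, -0.048 for Pdk4 with median-of-ratios scaling, -0.061 for Pdk4 with scaled FPKM and -0.010 for Errfi1 with the covariate.

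Of 28 pairs of genes, 7 passed by Spearman's rho, 6 with median-of-ratios scaling, 6 without Control 49 and Low 57 and 7 without libraries 56 to 62.

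With each of the 24 rats left out in turn, log2 differences in Low against Control ran from -0.081 (without Control 49) to 0.25 for Nr3c2, from -0.0090 to 0.25 for Pdk4 and from -0.038 to 0.11 for Errfi1. In High against Control they ran from -0.20 to 0.045 for Nr3c2, -0.11 to 0.028 for Fkbp5, -0.048 to 0.063 for Tsc22d3, -0.066 to 0.17 for Sgk1, -0.20 to 0.15 for Zbtb16, -0.038 to 0.24 for Pdk4 and -0.13 to 0.023 for Errfi1. In Low against High they ran from -0.069 to 0.19 for Pdk4, and between 0 and 1 of the 8 genes passed. The number of pairs past the threshold ran from 6 without Control 49 to 16 without High 68.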

Other observations

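Within single groups, 84 pairs of the 8 genes were examined by exact permutation over the orders of 8 rats, and 4 passed by r (1 in Control, 0 in Low and 3 in High). Fkbp5 and Zbtb16, which were picked out after their values were seen, had r = 0.89 in Control (exact permutation adjusted p = 0.0412) and -0.91 in High (exact permutation adjusted p = 0.0412), with r = 0.62 in Low (exact permutation adjusted p = 0.226). By rank the values were 0.86 in Control and -0.79 in High (exact permutation adjusted p = 0.129 and 0.206), and without the 2 farthest rats r was 0.81 and -0.64. The difference between the groups was not tested.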
